A study of Homo sapiens with 6 samples.

Results

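Regions listed under NeuroD1 and under the promoter mark H3K4me3 were examined around 9 genes linked to the non-neuroendocrine, mesenchymal state of small cell lung cancer, namely WWTR1, VIM, CD44, AXL, CAV1, ANXA1, CCND1, EPHA2 and TGFBR2. A region belonged to a gene when it overlapped the gene's hg19 span widened by 50 kb on each side, and identical intervals were merged. Of 61250 regions in the 4 peak lists, 41 met this rule. They comprised 2 of 3854 for NeuroD1 in H82, 8 of 20593 for NeuroD1 in H524, 10 of 18208 for H3K4me3 in H82 and 21 of 18595 for H3K4me3 in H524. The rule picks regions by gene name and position, not by a measured value, but the genes were chosen with earlier results of these data known.

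H82 and H524 are human small cell lung cancer cell lines, and both were grown in culture and left untreated. Chromatin immunoprecipitation with sequencing was done with an antibody against NeuroD1 and one against H3K4me3, and an input library of each line was not analysed here. With 1 library for each antibody and line, differences between lines have no replicate error, and none was tested. The depth of the libraries is unknown from the lists, which hold positions and scores only. Differences between the lines in copy number, in antibody enrichment or in sequencing depth could not be told apart from differences in binding or marking.

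Small cell lung cancer cells mostly carry a neuroendocrine programme that is driven in one subtype by NeuroD1, a basic helix-loop-helix factor which binds E-box motifs. A minority of tumours and cell lines lack this programme and instead express genes of Hippo, Notch and TGF-beta signalling, adhesion and the mesenchymal cytoskeleton. H3K4me3 marks nucleosomes around the start of genes that are active or ready for transcription. The lists describe binding and marking only, so expression of the 9 genes in H82 and H524 was not measured here.

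To show the promoters that the comparison is about, the 250 bases before the start are printed for 5 of the genes. They are both genes with H3K4me3 near the start in both lines (CAV1 and EPHA2), both genes without any region in either line (VIM and ANXA1), and TGFBR2 as an example of the mark in H524 alone. AXL and CCND1 also had the mark near the start in H524 alone; AXL is not printed because its region lay at the 2 kb limit, and its letters are described after the sequences. The H3K4me3 regions of CAV1, EPHA2 and TGFBR2 began downstream of the starts used here, which are known to about 1 kb, so the printed bases are not shown to be part of the marked intervals. They are from RefSeq in build GRCh38.p14, where the intervals are chr7:116524759-116525008 (plus strand), chr1:16156070-16156319 (minus strand), chr3:30606106-30606355 (plus), chr10:17227991-17228240 (plus) and chr9:73151615-73151864 (plus), and were not placed on the hg19 regions. For genes with several listed starts the outermost one was taken. Letters in capitals mark the E-box CANNTG, which reads the same pattern on both strands.
CAV1: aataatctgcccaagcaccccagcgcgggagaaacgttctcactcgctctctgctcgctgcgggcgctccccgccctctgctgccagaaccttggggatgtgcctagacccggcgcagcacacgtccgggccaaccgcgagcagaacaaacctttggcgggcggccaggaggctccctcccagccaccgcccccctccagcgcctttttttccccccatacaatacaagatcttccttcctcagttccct
EPHA2: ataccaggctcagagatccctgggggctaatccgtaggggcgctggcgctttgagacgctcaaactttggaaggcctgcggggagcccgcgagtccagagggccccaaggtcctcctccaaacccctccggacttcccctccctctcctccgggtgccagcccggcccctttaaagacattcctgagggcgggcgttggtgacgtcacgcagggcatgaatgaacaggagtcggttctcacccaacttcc
TGFBR2: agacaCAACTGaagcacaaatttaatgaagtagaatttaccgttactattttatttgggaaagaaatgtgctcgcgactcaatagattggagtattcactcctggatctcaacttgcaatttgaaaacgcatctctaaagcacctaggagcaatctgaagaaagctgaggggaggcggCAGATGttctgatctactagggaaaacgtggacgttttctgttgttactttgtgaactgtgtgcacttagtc
VIM: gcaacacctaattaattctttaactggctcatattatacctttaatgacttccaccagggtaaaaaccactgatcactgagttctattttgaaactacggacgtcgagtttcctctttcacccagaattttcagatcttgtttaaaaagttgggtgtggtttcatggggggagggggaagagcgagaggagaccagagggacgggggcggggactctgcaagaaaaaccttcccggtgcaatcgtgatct
ANXA1: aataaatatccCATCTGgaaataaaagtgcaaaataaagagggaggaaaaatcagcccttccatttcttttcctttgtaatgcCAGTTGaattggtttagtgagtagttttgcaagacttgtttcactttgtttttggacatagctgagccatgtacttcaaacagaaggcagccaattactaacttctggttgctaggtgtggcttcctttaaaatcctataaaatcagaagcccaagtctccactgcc

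CAV1, EPHA2 and VIM had no E-box in these 250 bases, while TGFBR2 and ANXA1 had 2 each. The TGFBR2 pair was CAACTG and CAGATG, and the ANXA1 pair was CATCTG and CAGTTG, where CATCTG is CAGATG read on the other strand. Among 35116 promoters of the same length, 61.8% held a CANNTG, 12.2% held CAGATG on either strand and 14.0% held CAGCTG, both being forms of CANNTG. CpG dinucleotides numbered 18 in CAV1, 15 in EPHA2, 7 in TGFBR2, 8 in VIM and 0 in ANXA1, against a median of 11 over all promoters. RefSeq lists other starts for some genes, and the values depend on which is taken. A second TGFBR2 start had 12 CpG and 2 CAGCTG, and the other CAV1 starts had 16 and 29 CpG and no E-box. AXL had 4 CpG and the E-box CAGGTG before its outer start, and 13 CpG with CACATG and CAGATG before its inner one. CD44, which had no H3K4me3 region, had 15 CpG and no E-box in its window. Promoter sequences were matched for 8 of the 9 genes (all but CCND1), and a motif match is a description of letters, not of binding.

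H3K4me3 lay at the gene start of more of these genes in H524 than in H82. A region within 2 kb of the start was listed for 2 genes in H82, CAV1 and EPHA2, and for 5 genes in H524, CAV1, EPHA2, CCND1, TGFBR2 and AXL. Keeping only scores at or above the list median left 0 genes in H82 and 3 in H524. Over the whole H3K4me3 lists, 52.4% of H82 regions and 52.9% of H524 regions overlapped one of the other line. NeuroD1 had no region within 2 kb of any of the 9 starts in either line. VIM, CD44 and ANXA1 had no H3K4me3 at the start in either line. WWTR1 had none at the start used here, but its span is longer than the RefSeq gene, so this start may be that of a long isoform, and both counts could gain WWTR1 with another start. For scale, 2.25% of 4 kb tiles laid over the genome held an H3K4me3 region of H82 and 2.40% one of H524, although tiles are not gene starts. For NeuroD1 the shares of 4 kb tiles were 0.567% in H82 and 2.91% in H524, and 0 of 9 starts is near these shares. The share over all gene starts was not computed for either antibody. Nothing particular about these genes is therefore read from the 0, or from the 2 and 5 starts with H3K4me3. Starts were known to about 1 kb, since the spans are given to that precision.

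**Figure D1:**
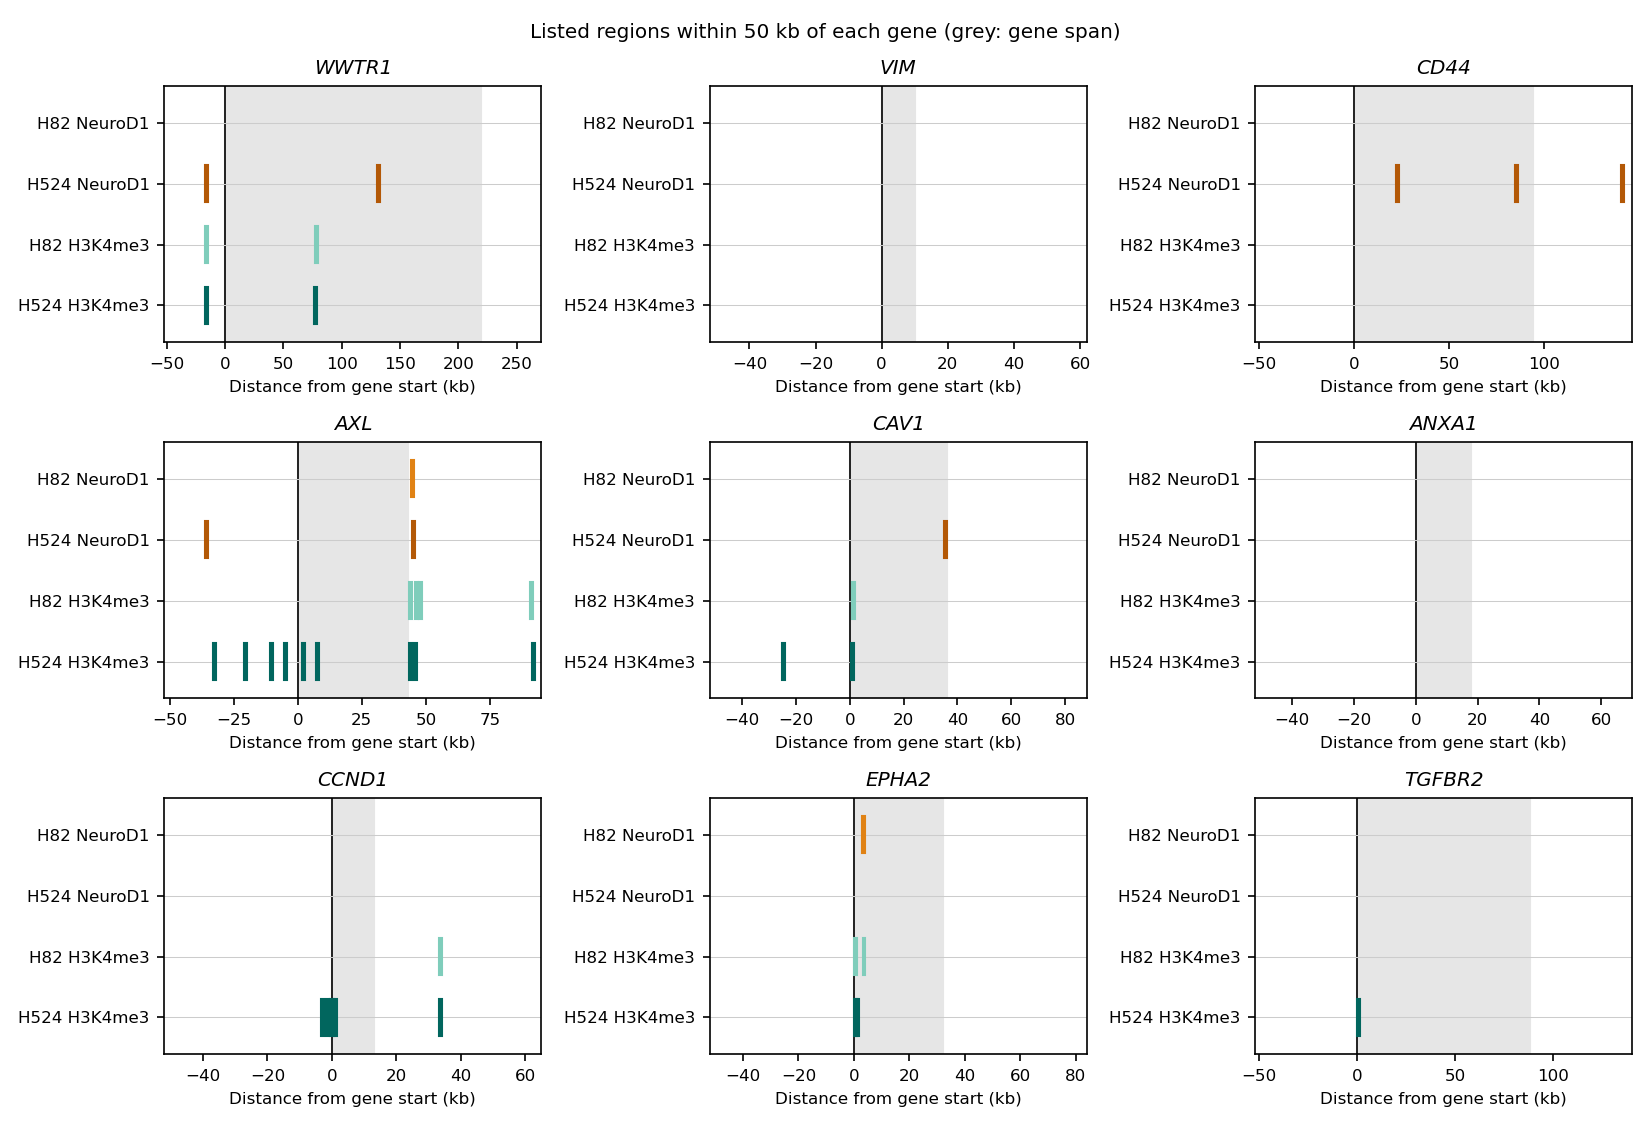
Regions of the 4 lists around each gene, drawn against distance from the gene start in kb, with transcription running to the right, the gene span in grey and 1 track per line and antibody; regions narrower than 0.8% of the panel's window are drawn at that width. VIM and ANXA1 have empty tracks, CD44 has only NeuroD1 of H524, and the H3K4me3 tracks of CCND1 and TGFBR2 have a mark at the start in H524 alone.

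CCND1, which encodes the D-type cyclin that drives the G1 phase, had the highest-ranking H3K4me3 region at any of the 9 starts, and had it in H524 alone. In H524, 4 H3K4me3 regions lay between 69452967 and 69457475 on chromosome 11. The widest, from 69455403 to 69456648, covered the start, was 1246 bp wide and scored 8.85, at percentile 92.1 of its list. Scores are the authors' values, apparently on a −log10 scale (inferred from the values, as no header states it), and are used here only to rank a region inside its own list. The other regions of this group scored 1.97, 4.30 and 1.81 and were 298 to 454 bp wide. In H82 no H3K4me3 region was listed nearer than 33.4 kb to the CCND1 start. That region, from 69489414 to 69490150, was 20.4 kb beyond the 3′ end and had a counterpart in H524 from 69489435 to 69489963, with 529 bp in common. In RefSeq the next gene on this side is LTO1, and the region could not be assigned to either gene without an hg19 annotation. NeuroD1 was not listed in the CCND1 window in either line, the nearest region in H524 being 63.9 kb beyond the span and the nearest in H82 1228 kb away.

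TGFBR2, the type II receptor subunit of TGF-beta, carried the mark at its start in H524 alone. The single region, from 30648081 to 30648771 on chromosome 3, was 691 bp wide and scored 3.31, at percentile 41.6. It began 0.08 kb downstream of the start. When only scores at or above the list median were kept, this region was gone, leaving 0. In H82 the nearest H3K4me3 region was 925 kb from the start, and no list of H82 had a region in the window. NeuroD1 of H524 was 258 kb away. The window held no other region in any list.

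CAV1, the scaffold protein of caveolae, and EPHA2, a receptor for ephrin ligands, had the mark at the start in both lines. At CAV1 the H82 region ran from 116166104 to 116166385 on chromosome 7 and was 282 bp wide, with a score of 2.84 at percentile 34.5. All 282 bp lay inside the H524 region, which ran from 116165346 to 116166385, was 1040 bp wide with 2 summits and scored 4.30 at percentile 58.8. At EPHA2 the shared region was similar in both lines, from 16481979 to 16482594 on chromosome 1 in H82 and from 16481998 to 16482556 in H524. Their scores of 3.31 and 3.41 were at percentiles 42.9 and 42.6. H524 had another H3K4me3 region of 270 bp at 1.34 kb from the EPHA2 start (score 4.95), and H82 had one of 311 bp inside the gene at 3.51 kb (score 3.59). CAV1 also had an H3K4me3 region in H524 alone at 24.4 kb before the start, on the side of its neighbour CAV2, with a score of 2.62.

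NeuroD1 near these 2 genes was low-ranking and listed in 1 line each. In the whole NeuroD1 lists, 53.6% of H82 regions and 9.98% of H524 regions overlapped one of the other line. EPHA2 had a NeuroD1 region in H82 alone, from 16479450 to 16479810, which lay 3.19 kb inside the gene and scored 1.82 at percentile 15.1. It shared 41 bp with the H82 H3K4me3 region next to it. In H524 the nearest NeuroD1 region to the EPHA2 span was 56.8 kb away, with a score of 12.34 at percentile 91.0. CAV1 had a NeuroD1 region in H524 alone, from 116200244 to 116200780 at the 3′ part of the gene, 35.2 kb from the start, with a score of 3.22 at percentile 36.5 and no H3K4me3. The nearest H82 NeuroD1 region was 1315 kb from CAV1. Both contrasts ended under another setting: the EPHA2 region was gone from H82 at scores of at least 2, leaving 0, and the CAV1 region was gone from H524, leaving 0, when the longer H524 list was limited to the length of the H82 list.

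**Figure D2:**
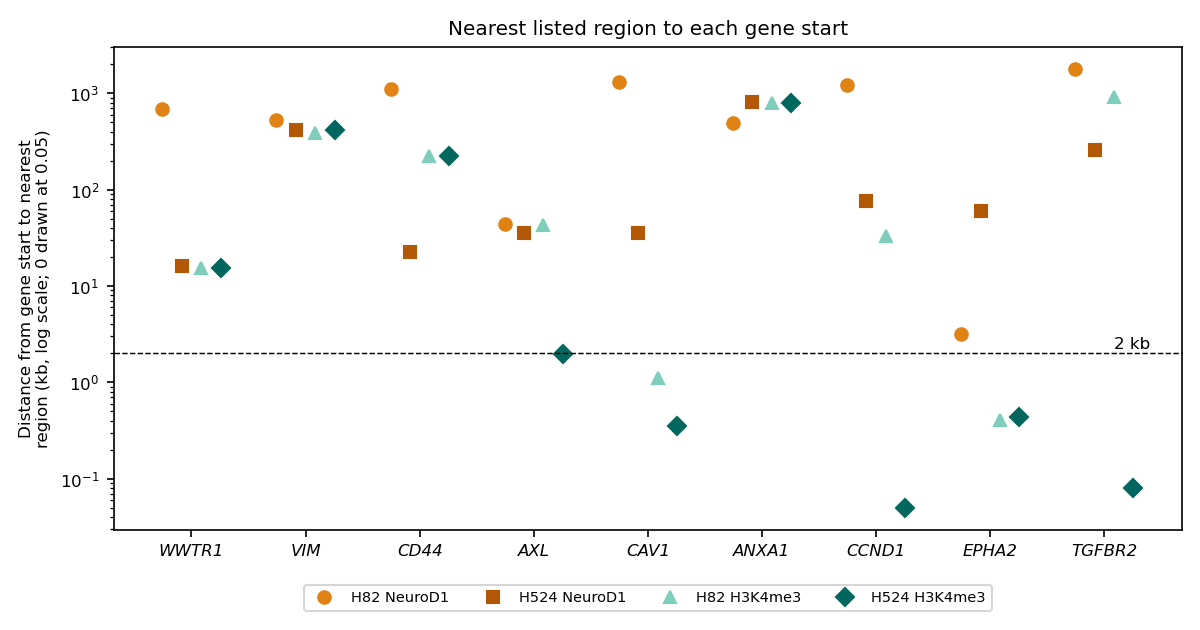
Distance in kb (log scale) from each gene start to the nearest region of each list, with a dashed line at 2 kb and a distance of 0 drawn at 0.05 kb. The H3K4me3 points at or under the line belong to CAV1 and EPHA2 in both lines and to CCND1, TGFBR2 and AXL in H524, and every NeuroD1 point lies above it.

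AXL, a receptor tyrosine kinase activated by GAS6, had the most regions of the 9 genes, 16 over the 4 lists, and was the single gene with regions in all 4. Of these, 9 lay beyond its 3′ end, where HNRNPUL1 and CCDC97 are the next genes in RefSeq. The 9 include every H82 region of this window, and they could not be assigned to AXL or a neighbour without an hg19 annotation. Beyond the 3′ end, NeuroD1 was listed in both lines at nearly the same place on chromosome 19. The H82 region, from 41769388 to 41770484, scored 41.36 with rank 14 of its list, and the H524 region, from 41769486 to 41770492, scored 36.02 with rank 142. They had 999 bp in common, 1.39 and 1.49 kb beyond the AXL 3′ end. This was the only NeuroD1 region near the 9 genes that was listed in both lines.

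H3K4me3 lay on both sides of this NeuroD1 region. In H82 the flanking H3K4me3 regions ran from 41768235 to 41769658 (score 8.60) and from 41770971 to 41772002 (score 10.51), at percentiles 90.8 and 95.4. The first had 271 bp in common with NeuroD1 and the second began beyond it. In H524 they ran from 41768752 to 41769559 (score 6.28) and from 41770349 to 41771632 (score 4.87), with 74 and 144 bp in common with NeuroD1. A further H3K4me3 region was shared by the lines at 47.8 kb (H82) and 48.4 kb (H524) beyond the 3′ end. It scored 7.17 and 5.53. In H82 alone, an H3K4me3 region of 302 bp ran from 41772867 to 41773168, 4.87 kb beyond the 3′ end, with a score of 1.49.

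The AXL start itself looked different in the lines. In H82 no region of either antibody lay between 50 kb before the AXL start and its 3′ end. In H524, 6 narrow H3K4me3 regions were strewn from 32.4 kb before the start to 7.96 kb inside the gene. They were 256 to 464 bp wide and scored 1.45 to 3.52, at percentiles 4.68 to 47.0, all below the median of the list. None was within 1 kb of an H3K4me3 region of H82. One of them, from 41726968 to 41727287, counted as at the start with a distance of 1.97 kb, just inside the 2 kb limit. RefSeq also lists an inner AXL start, and whether one of these regions lies on it was not determined without an hg19 annotation. On chromosome 19 as a whole H3K4me3 had 1921 regions in H524 and 1050 in H82, and the part of this difference in the AXL regions was not tested. A single weak NeuroD1 region of H524 lay 35.2 kb before the start, with a score of 2.47.

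CD44, the hyaluronan receptor, had NeuroD1 without H3K4me3, and in H524 alone. Both traits are common in this list: 9.98% of all H524 NeuroD1 regions overlapped one of H82, and 16.0% lay on H3K4me3. The region from 35182450 to 35182969 on chromosome 11, 22.4 kb inside the gene, scored 21.58 at percentile 97.6 and was the highest-ranking NeuroD1 region inside any of the 9 gene spans. Another region, from 35244910 to 35245325, lay 84.9 kb from the start and scored 5.80 at percentile 67.2. The third, from 35300488 to 35301137, was 46.5 kb beyond the 3′ end on the side of SLC1A2, with a score of 3.21. The nearest NeuroD1 region of H82 was 1115 kb from the CD44 start. With the H524 list limited to the length of the H82 list, 1 of these 3 regions was left. H3K4me3 was 221 kb from the start in H82 and 222 kb in H524, on the upstream side in both.

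WWTR1, which encodes the Hippo pathway coactivator TAZ, had an H3K4me3 region inside the gene and another before its start in both lines. The inner region ran from 149375818 to 149376179 on chromosome 3 in H82 (score 1.63, percentile 10.4) and from 149375893 to 149376379 in H524 (score 6.21, percentile 77.8), about 78 kb from the start used here. RefSeq lists 2 starts for WWTR1, and whether this region lies on one of them was not determined, because an hg19 annotation was not used here. The outer one, from 149469351 to 149470238 in H82 (score 4.94, percentile 66.7) and from 149469430 to 149470230 in H524 (score 1.45, percentile 4.68), lay on the side of the neighbour COMMD2. The inner region thus stood higher in the H524 list and the outer one higher in the H82 list, a contrast of ranks with no replicate check. NeuroD1 was listed in H524 alone, at 149470093 to 149470357 with 138 bp on the outer H3K4me3 region (score 2.47), and at 149322087 to 149322563 inside the gene (score 1.44, percentile 1.52). In H82 the nearest NeuroD1 region was 476 kb from the span. Of the whole H524 NeuroD1 list, 9.98% overlapped a region of H82. With the H524 list limited to the length of the H82 list, 0 NeuroD1 regions were left near WWTR1.

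**Figure D3:**
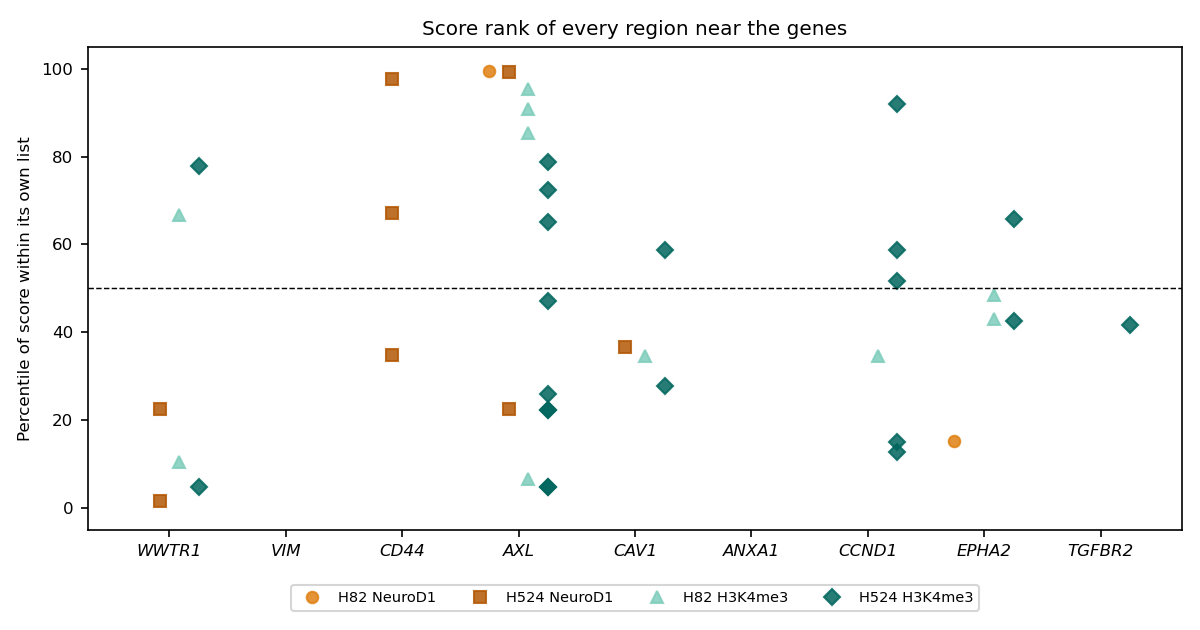
Percentile of each region's score within its own list (0 lowest, 100 highest) by gene, with 1 symbol per region and a colour and symbol for each line and antibody; the dashed line is the 50th percentile. NeuroD1 exceeds percentile 90 beside AXL in both lines and in CD44 in H524, and the marks at the starts of CAV1, EPHA2 and TGFBR2 lie between percentiles 34.5 and 65.8.

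VIM, the intermediate filament of mesenchymal cells, and ANXA1, a phospholipid-binding protein of the annexin family, had no region of either antibody in either line. In the files used here the absence reached far beyond the 50 kb window. Around VIM, no list had a region between 16859495 and 17658437 on chromosome 10, an empty stretch of 798.9 kb. In RefSeq the next gene before the VIM start is TRDMT1, and that side of the window was empty too. Around ANXA1 the empty stretch ran from 75270008 to 77111726 on chromosome 9 and measured 1841.7 kb. Of 43501 gaps between neighbouring regions of the 4 lists combined, 331 were at least as long as the one around VIM and 59 as the one around ANXA1. Gaps of at least the VIM length held 18% of the length covered by the lists, and those of at least the ANXA1 length held 7.75%.

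The nearest regions to VIM were H3K4me3 of H82 at 378 kb from the span, NeuroD1 and H3K4me3 of H524 at 406 kb each, and NeuroD1 of H82 at 529 kb. For ANXA1 they were NeuroD1 of H82 at 497 kb, H3K4me3 at 788 kb in both lines and NeuroD1 of H524 at 818 kb. An empty window says that no region was listed there at these depths, not that binding or marking was absent. Whether reads map well in these stretches, how many copies of them each line holds, and whether the lists used here are complete there was not tested.

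The windows of the 9 genes were set against tiles of the genome. A region was listed for 2 of the 9 genes under NeuroD1 in H82 and for 4 in H524, where 13.3% and 43.1% of tiles of 136 kb, the median window width, held one. For H3K4me3 the numbers were 5 and 6 of the 9 genes, against 33.1% and 36.0% of tiles. Tiles fall on gene-poor stretches as well, so the comparison gives scale only. Over all 4 lists, 40.3% of tiles held no region at all, as did the windows of 2 of the 9 genes. A region of every list was held by 6.92% of tiles and, among the 9 genes, by the AXL window alone.

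Region numbers were also set against the mean density of the same chromosomes, and the interval held that value in every list but H3K4me3 of H524. For NeuroD1, 2 regions were counted in H82 (exact Poisson 95% interval 0.242 to 7.22) against 1.94 from the density, and 8 in H524 (3.45 to 15.8) against 10.5. For H3K4me3 they were 10 in H82 (4.80 to 18.4) against 9.74, and 21 in H524 (13.0 to 32.1) against 11.6. These intervals cover counting error only, and regions of one gene are not independent. The chromosome mean includes gene-poor stretches while the windows are centred on genes, so this comparison also gives scale only. Without AXL, H3K4me3 of H524 had 12 regions (6.20 to 21.0) against 6.92, so the interval then held the value from the density. The groups at AXL and CCND1 supplied 14 of the 21 regions.

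**Figure D4:**
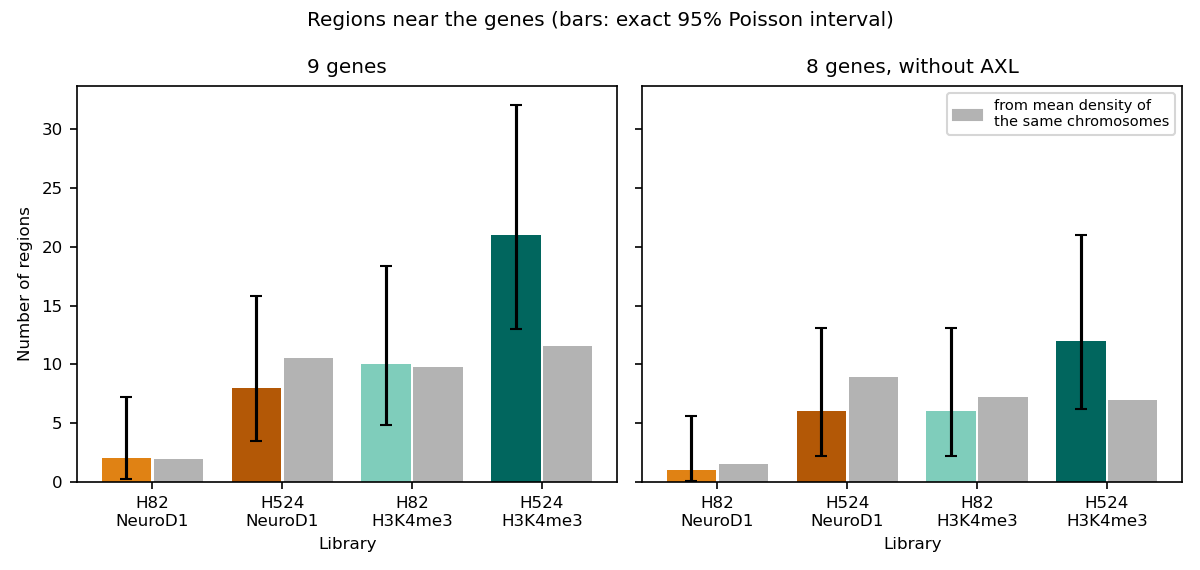
Number of regions in the windows of the 9 genes (left) and without AXL (right) for each line and antibody, with exact 95% Poisson intervals, beside grey bars for the number that the mean density of the same chromosomes gives. With 9 genes the interval of H3K4me3 in H524 (13.0 to 32.1) lies above its grey bar of 11.6, and without AXL every interval holds the grey bar. The mean density includes gene-poor stretches, so the grey bars give scale only.

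The H3K4me3 regions near the genes were compared between lines. In H82, 8 of 10 regions overlapped one of H524 (80.0%, exact Clopper-Pearson 95% interval 44.4 to 97.5), where the whole list had 52.4%. In H524, 8 of 21 overlapped one of H82 (38.1%, 18.1 to 61.6), where the whole list had 52.9%. Both intervals hold the share of the whole list. They cover counting error only and treat regions of one gene as independent, which is not the case. The H524 regions without a counterpart were 6 at AXL, 4 at CCND1 and 1 each at CAV1, EPHA2 and TGFBR2. For NeuroD1, 1 of 2 regions in H82 and 1 of 8 in H524 were shared, namely the region beyond AXL, where the whole lists had 53.6% and 9.98%.

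NeuroD1 met H3K4me3 of its own line at 3 of the 9 genes. In H82 both NeuroD1 regions did so (100%, 15.8 to 100), beyond AXL and inside EPHA2, against 29.4% of the whole list. With 2 regions, this interval holds the share of the whole list. In H524 2 of 8 did so (25%, 3.19 to 65.1), beyond AXL and before WWTR1, against 16.0% of the whole list. The remaining 6 NeuroD1 regions of H524, at WWTR1, CD44, AXL and CAV1, had no listed H3K4me3. These 4 NeuroD1 regions shared at most 41 to 271 bp with any one H3K4me3 region, and none was at the start of one of the 9 genes. Of the 10 NeuroD1 regions, 5 lay inside a gene span, 3 beyond a 3′ end and 2 before a start.

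At the limit of the window, the farthest regions inside were the H3K4me3 pair beyond AXL at 47.8 and 48.4 kb and the NeuroD1 region beyond CD44 at 46.5 kb. Just outside lay an H3K4me3 region of H524 at 50.25 kb from CCND1 (score 2.09), one of H82 at 51.0 kb from EPHA2 (score 2.84) and one of H524 at 56.0 kb from AXL (score 1.45).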

How the data were processed

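The 4 peak lists were used, 1 per antibody and line, and the input libraries were not analysed. The submitters' processing notes name Trimmomatic 0.38, Bowtie 1.1.2, SAMtools 1.9, Picard 1.118 and MACS2 2.1.1 and the build hg19, without roles or settings, and the use of input as a control is not given in the sources used here either. The score that the authors deposited was taken for the −log10 of an adjusted p-value because of its lowest value of 1.304, just above the 1.301 of 0.05, since no header states it. Entries with the same interval were merged with their highest score. Percentiles are ranks within a list.

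The gene spans were read to 1 kb and strands were checked against RefSeq for 8 genes. Overlap needed 1 bp. Tiles and chromosome densities ran from the first to the last region of each chromosome. Neighbouring genes and promoters came from RefSeq in GRCh38.p14 by symbol, so no hg19 exon or intron is assigned. Tools were Python 3.11.15, scipy 1.17.1, pandas 2.3.3, numpy 2.4.6 and matplotlib 3.10.9, and window and overlap counting was tested on simulated data. All 9 genes were named, with up to 4 regions per gene and list in full and otherwise the highest-scoring 3 and the nearest to the start; more are given at AXL and CCND1. Genes, lists and alternatives were chosen with earlier results of these data known. Counts for other genes of the programme, which need hg19 positions, were not made.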

Additional observations from a re-analysis of the deposited data

How the results depend on the processing

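No paired analysis was possible because each antibody and line had 1 library. Of 130 recomputed values of the main comparisons, 103 stayed within 1.5 times of the count or within the interval of the share, and 27 moved. Keeping only scores of at least 2 left 1 NeuroD1 region at 1 gene in H82, of which 100% was shared. Keeping only scores at or above the list median left 1 NeuroD1 region at 1 gene in H82 (100% shared) and 3 at 2 genes in H524, and left 5 H3K4me3 regions at 3 genes in H82 and 9 in H524. With that median limit, H3K4me3 lay at the start of 0 genes in H82 and 3 in H524. A start window of 1 kb gave 1 gene in H82. Limiting the H524 NeuroD1 list to the length of the H82 list left 2 regions at 2 genes. Flanks of 10 and 100 kb gave 5 and 14 NeuroD1 regions in H524, and 100 kb gave 17 H3K4me3 regions in H82. When an overlap had to cover 50% of either region, 0% of the H82 NeuroD1 regions met H3K4me3. As alternatives chosen after seeing the data, leaving out AXL gave 1 NeuroD1 and 6 H3K4me3 regions in H82 and 12 H3K4me3 regions in H524. Leaving out regions beyond the 3′ end gave 1 NeuroD1 region at 1 gene and 5 H3K4me3 regions at 3 genes in H82. VIM and ANXA1 had no region with flanks of up to 100 kb. Reads per library are unknown, so a region missing from a list may have been missed for depth.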
